A study of Mus musculus with 4 samples.

Results

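The contractile genes of smooth muscle are 10 genes of the deposited mouse lung table, Acta2, Myh11, Tagln, Cnn1, Des, Actg2, Lmod1, Synpo2, Smtn and Hhip, taken by symbol from a table of 21931 genes. Each symbol matched 1 row. The study sequenced RNA from the lungs of C57BL6 mice aged 2 months, with no added treatment, to compare animals in which Dnah9, an outer dynein arm heavy chain of motile cilia, was knocked out. There were 2 libraries labelled Dnah9 knockout, 1 with the genotype label Hez, which is kept as written because it is not spelled out, and 1 wild-type library. The sources used here do not give the deleted part of Dnah9, the sex of the mice or whether libraries shared a litter. P-values set differences against the spread of the knockout pair, moderated over all genes, because wild type and Hez hold 1 library each. They hold no spread among wild-type or Hez animals, and the spread they use may be technical.

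Smooth muscle lines the walls of airways and of pulmonary vessels, and its tone sets their diameter. Contraction starts when calcium and calmodulin activate the kinase of the myosin light chain, and smooth muscle myosin then pulls on filaments of smooth muscle actin that are anchored through dense bodies and desmin. Many of these genes are switched on by serum response factor, which binds a sequence called the CArG box, together with its cofactor myocardin.

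The promoters of 3 of the genes are shown for the SRF motif: Acta2, the most abundant of the genes, Cnn1, whose level differed strongly between libraries, and Hhip, the 1 gene that was not lower in knockout than in wild type. Each window runs from 250 bases before to 50 after the RefSeq gene start on GRCm38.p6, another build than that of the count table, and was found for 7 of the 10 genes. Capitals mark matches to the CArG box with at most 1 base of its A/T core changed. The motif is its own reverse complement in form, so both strands were covered.
Acta2 (chr19:34255324-34255623, minus strand): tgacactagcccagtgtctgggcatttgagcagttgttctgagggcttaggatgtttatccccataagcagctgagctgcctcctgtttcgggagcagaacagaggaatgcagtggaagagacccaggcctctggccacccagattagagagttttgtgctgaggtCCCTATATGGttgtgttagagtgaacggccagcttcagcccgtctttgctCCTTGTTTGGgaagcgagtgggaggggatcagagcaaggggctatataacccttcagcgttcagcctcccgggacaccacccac
Cnn1 (chr9:22099003-22099302, plus strand): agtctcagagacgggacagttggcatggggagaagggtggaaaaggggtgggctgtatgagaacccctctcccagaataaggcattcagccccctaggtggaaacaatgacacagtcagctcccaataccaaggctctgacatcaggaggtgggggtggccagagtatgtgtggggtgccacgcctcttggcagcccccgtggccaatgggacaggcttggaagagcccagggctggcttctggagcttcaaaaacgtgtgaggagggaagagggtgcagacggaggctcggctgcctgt
Hhip (chr8:80057959-80058258, minus strand): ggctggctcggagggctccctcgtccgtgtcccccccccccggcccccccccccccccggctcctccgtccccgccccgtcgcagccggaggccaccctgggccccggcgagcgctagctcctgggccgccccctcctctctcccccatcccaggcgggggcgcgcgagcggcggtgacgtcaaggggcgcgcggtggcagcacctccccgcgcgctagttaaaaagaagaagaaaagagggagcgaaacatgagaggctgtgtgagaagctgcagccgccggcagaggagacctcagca
The Acta2 window held 2 such matches, which began at -84 and -34 relative to the gene start. The other 6 windows held 0. A CArG box with an intact core stood in 0 of the 7 windows and in 1.63% of the 32851 windows of the table, and one with at most 1 core base changed in 9.98%. The Hhip window had a GC content of 73.7%, against 54.7% for Acta2, 59.3% for Cnn1 and a median of 52.7% over the table. A match is a run of letters and was not tested for binding.

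The total read count was 16382227 and 15860478 in the knockout libraries, 16553480 in Hez and 16106514 in wild type, and mitochondrial genes took 3.02% to 3.36% of the reads. Dnah9 stood at 14.8 and 16.0 CPM (the read count scaled to the TMM-adjusted library total) in the knockout libraries, 25.4 in Hez and 56.6 in wild type. The lung marker Sftpc, the surfactant protein C gene of alveolar type 2 cells, stood at 12168 to 13876 CPM. All 10 contractile genes passed the filter on low counts, Tagln through its knockout 2 and wild-type libraries.

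Per length, in FPKM (the read count scaled to the gene's length and the library total), Acta2 was the most abundant of the genes, with a mean of 250.4 over the 4 libraries. Des (58.0), Myh11 (56.8), Actg2 (45.7) and Cnn1 (39.5) came next, then Smtn (15.5), Hhip (8.81), Lmod1 (8.07) and Synpo2 (7.11), and Tagln (0.405) last. The ranges over libraries of Des, Myh11, Actg2 and Cnn1 overlapped, as did those of Hhip, Lmod1 and Synpo2. Within each library Des and Myh11 were above Actg2 and Actg2 above Cnn1, whereas Des and Myh11 changed places between libraries. Lmod1 was above Synpo2 in each library, and Hhip was above both outside wild type and below both in wild type. Acta2 was above and Tagln below the other 8 genes in all 4 libraries.

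**Figure D1:**
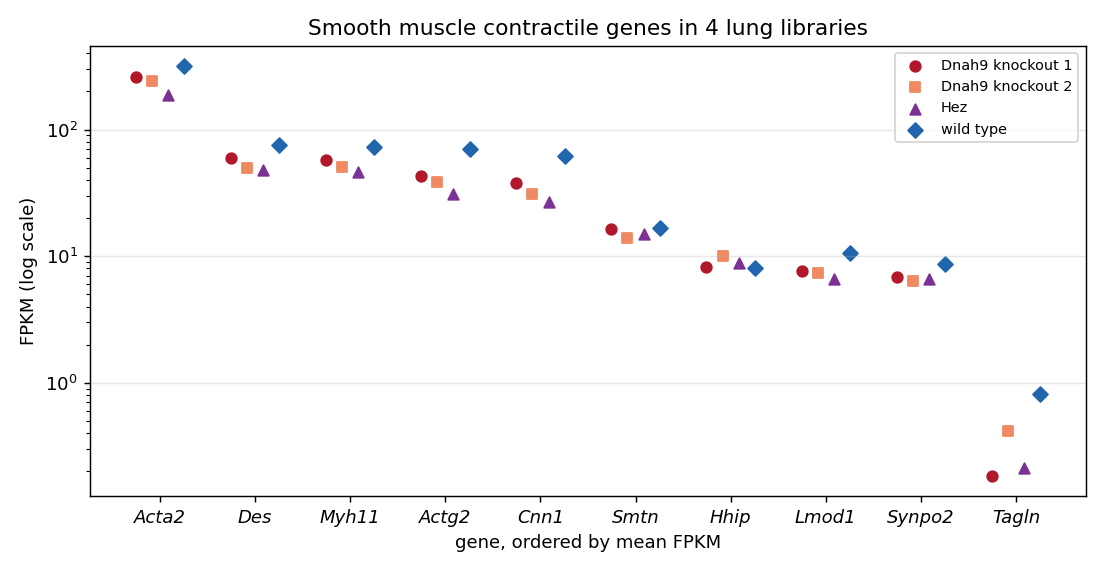
FPKM of the 10 contractile genes on a log axis, with 1 point for each of the 4 libraries and genes ordered by their mean. Acta2 lies at 187 to 316 FPKM and Tagln at 0.184 to 0.812 FPKM, below all others.

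The actins and the myosin heavy chain form the force-producing filaments. Acta2, smooth muscle alpha actin (ENSMUSG00000035783, GRCm39 chromosome 19, 34218490 to 34232990), had 573 and 526 CPM in the knockout libraries, 411 in Hez and 689 in wild type. The 95% exact Poisson intervals, which cover counting error only, were 562 to 585, 515 to 538, 401 to 420 and 676 to 702 CPM, so the 4 libraries were separated at this depth. The fitted log2 fold of knockout against wild type was -0.33 (SE 0.0881, n = 2 against 1, edgeR adjusted p = 0.566), which did not pass the threshold of 0.05. Against Hez it was 0.42 (SE 0.0908, edgeR adjusted p = 0.628), so the knockout libraries lay between the Hez and the wild-type library.

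Actg2, the gamma actin of smooth muscle (ENSMUSG00000059430, chromosome 6, 83489887 to 83513247), had 67.1 and 59.9 CPM in the knockout libraries, 48.0 in Hez and 109 in wild type. Both knockout libraries thus stood at 61.3% and 54.8% of wild type, and Hez at 43.9%. The log2 fold against wild type was -0.78 (SE 0.108, edgeR adjusted p = 0.12), the smallest p of the 10 genes and the 11th smallest of all 15055 genes tested. Against Hez it was 0.40 (SE 0.115, edgeR adjusted p = 0.815). Reads from near-identical stretches of the actin genes may not be separated, since nothing in the labels says how shared reads were counted.

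Myh11, the smooth muscle myosin heavy chain (ENSMUSG00000018830, chromosome 16, 14012399 to 14109236), had 440 and 385 CPM in the knockout libraries, 352 in Hez and 549 in wild type. The groups did not overlap and kept the order of the actins, with Hez lowest and wild type highest. The log2 fold against wild type was -0.41 (SE 0.102, edgeR adjusted p = 0.486), and against Hez 0.23 (SE 0.104, adjusted p = 1.0).

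Calponin, transgelin, smoothelin and leiomodin bind the actin filament. Cnn1, calponin 1, which damps the myosin ATPase (ENSMUSG00000001349, chromosome 9, 22010512 to 22020926), had 105 and 84.8 CPM in the knockout libraries, 73.3 in Hez and 169 in wild type. Hez again was lowest, at 43.4% of wild type, with the knockout libraries at 62.0% and 50.2%. The log2 fold against wild type was -0.83 (SE 0.131, edgeR adjusted p = 0.208). Cnn1 was the 1 contractile gene that another tool called: the DESeq2 Wald test gave adjusted p = 0.0197, and over all alternatives with a test the adjusted p ranged from 0.0197 to 0.98. Against Hez the log2 fold was 0.37 (SE 0.139, edgeR adjusted p = 1.0).

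Tagln, transgelin or SM22, an abundant actin-binding protein of smooth muscle (ENSMUSG00000032085, chromosome 9, 45840917 to 45847356), was counted with only 6 and 13 reads in the knockout libraries, 7 in Hez and 26 in wild type. These reads gave 0.369 and 0.818 CPM in the knockout libraries, 0.424 in Hez and 1.60 in wild type, and a mean FPKM of 0.162% of that of Acta2. The log2 fold against wild type was -1.43, the largest in size of the 10, but with the largest error as well (SE 0.752, edgeR adjusted p = 0.996). The Poisson intervals of knockout 2 (0.436 to 1.40 CPM) and wild type (1.05 to 2.35 CPM) overlapped. In the table Tagln shares 108 bases with Pcsk7, which lies on the other strand and had 776 and 839 reads in the knockout libraries, 837 in Hez and 854 in wild type. The GENCODE M21 annotation, on GRCm38, also places an antisense gene, Gm48529, across Tagln on the other strand. No row of the deposited counts carries that name, so its level is unknown here. That annotation places opposite-strand genes of differing kinds across Des, Smtn, Lmod1, Hhip and Synpo2 as well. Whether any such neighbour bears on the count of the gene it overlaps was not tested. The Tagln counts are therefore uncertain as a measure of the transcript.

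Smtn, smoothelin, which marks contractile smooth muscle (ENSMUSG00000020439, chromosome 11, 3467523 to 3490612), had 72.3 and 60.5 CPM in the knockout libraries, 65.7 in Hez and 72.5 in wild type. Knockout 1 and wild type were inside each other's Poisson intervals, and Hez lay between the knockout libraries. The log2 fold was -0.13 against wild type (SE 0.127, edgeR adjusted p = 0.996) and 0.02 against Hez (SE 0.128, adjusted p = 1.0). Lmod1, leiomodin 1, which nucleates actin filaments (ENSMUSG00000048096, chromosome 1, 135252545 to 135295803), had 30.5 and 28.8 CPM in the knockout libraries, 26.3 in Hez and 41.8 in wild type. The knockout libraries were close to each other and below wild type, with a log2 fold of -0.49 (SE 0.138, edgeR adjusted p = 0.588), and their intervals overlapped that of Hez. Against Hez the log2 fold was 0.17 (SE 0.144, edgeR adjusted p = 1.0).

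Desmin and synaptopodin 2 belong to the anchoring cytoskeleton. Des, the muscle intermediate filament protein desmin, which cardiac muscle also makes (ENSMUSG00000026208, chromosome 1, 75336973 to 75345223), had 224 and 187 CPM in the knockout libraries, 181 in Hez and 279.5 in wild type. Hez and knockout 2 were close together, and wild type was highest. The log2 fold against wild type was -0.44 (SE 0.122, edgeR adjusted p = 0.575) and against Hez 0.18 (SE 0.125, adjusted p = 1.0). Synpo2, synaptopodin 2 or myopodin, a partner of actin and alpha-actinin (ENSMUSG00000050315, chromosome 3, 122870168 to 123029798), had 90.8 and 82.6 CPM in the knockout libraries, 87.0 in Hez and 112 in wild type. Hez lay between the knockout libraries and all 3 were below wild type, with a log2 fold of -0.37 against wild type (SE 0.105, edgeR adjusted p = 0.615) and -0.0048 against Hez (SE 0.107, adjusted p = 1.0).

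Hhip, the hedgehog-interacting protein, is no part of the contractile apparatus: it binds hedgehog ligands and is made by airway smooth muscle and fibroblasts of the mouse lung (ENSMUSG00000064325, chromosome 8, 80692480 to 80784635). It had 75.1 and 90.7 CPM in the knockout libraries, 80.8 in Hez and 73.4 in wild type. Wild type was lowest here, and the Poisson intervals of knockout 1 (71.0 to 79.5 CPM) and wild type (69.3 to 77.7 CPM) overlapped. The log2 fold was 0.18 against wild type (SE 0.131, edgeR adjusted p = 0.996) and 0.04 against Hez (SE 0.13, adjusted p = 1.0).

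**Figure D2:**
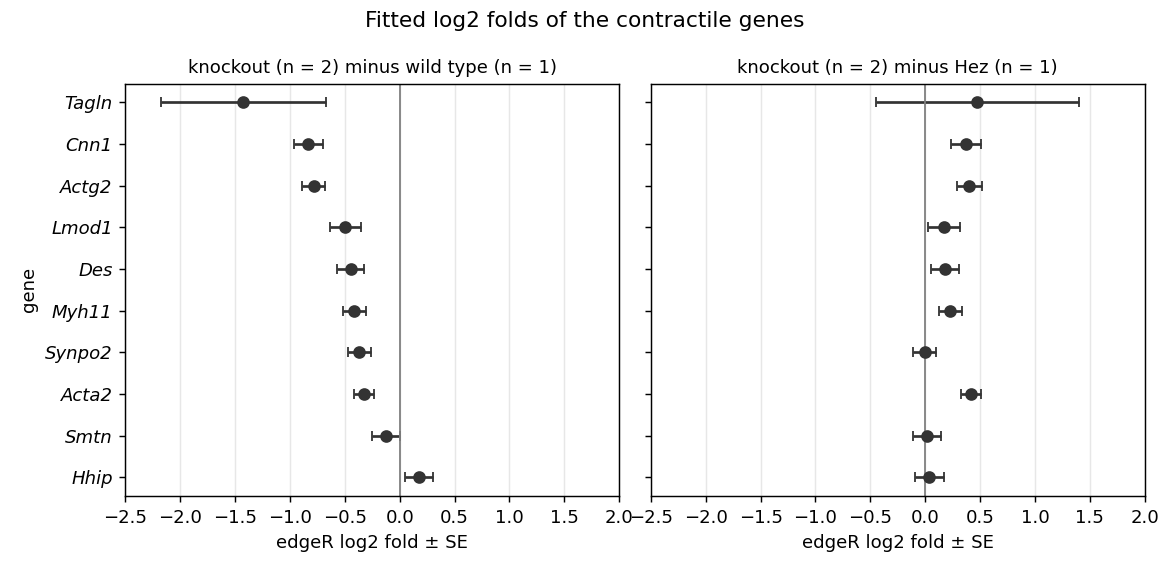
Fitted edgeR log2 folds of the 10 genes with their standard errors, for knockout against wild type on the left and knockout against Hez on the right. Against wild type 9 of the 10 are below 0, and against Hez 9 of the 10 are above 0, with 0 past the threshold in either panel. Of all 15055 tested genes, 7365 are below 0 against wild type and 7898 above 0 against Hez.

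Across the 10 genes, 9 had a negative log2 fold in knockout against wild type, as had 7365 of all 15055 tested genes. The folds of the 10 had a median of -0.43, where the median of all tested genes was 0.00 (0.0045). With the edgeR quasi-likelihood test 0 of the 10 passed the adjusted threshold, beside 8 of all genes (0.0531%). At an unadjusted p below 0.05, 7 of the 10 were lower (Acta2, Actg2, Myh11, Cnn1, Lmod1, Des and Synpo2) and 0 higher, while 3.37% of all genes were lower and 1.81% higher at that level. With DESeq2 1 of the 10 passed the adjusted threshold, beside 14 of all genes, and with limma-voom 0, beside 9 of all genes. Both knockout libraries were below the wild-type library for 9 of the 10, a pattern that 33.4% of all tested genes showed. The median was -0.32 in knockout 1 and -0.52 in knockout 2, negative in both.

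Against Hez the median of the 10 was 0.20, and that of all tested genes was 0.01. Again 0 of the 10 passed the adjusted threshold, beside 1 of all genes (0.00664%). At an unadjusted p below 0.05, 3 of the 10 (Acta2, Actg2 and Cnn1) were higher and 0 lower, beside 2.5% and 2.11% of all genes. Both knockout libraries were above the Hez library for 6 of the 10 genes and for 34.2% of all tested genes. The Hez library, set against wild type without a test since each holds 1 library, had a median log2 difference of -0.65 over the 10 genes. It was lower by 1.5-fold or more for 7 of them (Acta2, Actg2, Myh11, Cnn1, Tagln, Lmod1 and Des), as were 6.84% of all genes. Of these, Tagln had only 7 reads in Hez and 26 in wild type. The Hez library was higher by that much for 0 of the 10 and for 2.8% of all genes. The comparisons of knockout and of Hez with wild type share the 1 wild-type library.

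For 6 of the 10 genes, Acta2, Actg2, Myh11, Cnn1, Lmod1 and Des, the Hez library was lowest, both knockout libraries were in between and wild type was highest. Of all tested genes, 8.71% had this order. The summed CPM of the 10 genes was 1678 and 1506 in the knockout libraries, 1326 in Hez and 2097 in wild type. Dnah9 itself had another order, being lower in both knockout libraries than in Hez. In RNA from whole tissue, fewer smooth muscle cells and less RNA per cell cannot be told apart.

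**Figure D3:**
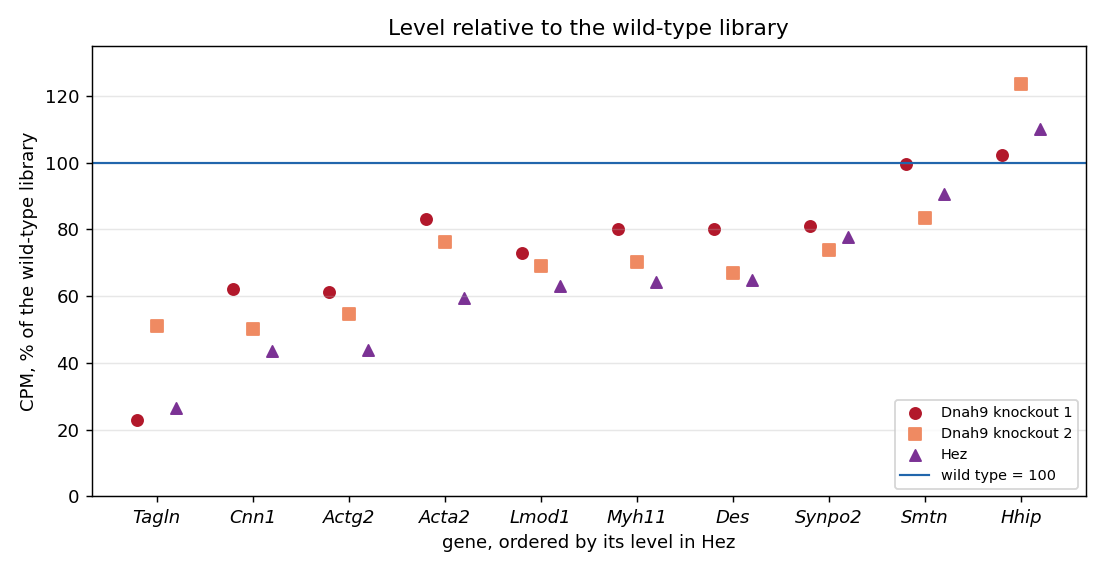
Level of each contractile gene in the knockout and Hez libraries as a percentage of its CPM in the wild-type library, which is drawn as a line at 100. Hez is below both knockout libraries for 6 genes, Cnn1 and Actg2 in Hez stand at 43.4% and 43.9%, and Hhip is above 100 in all 3 libraries.

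The ratios between the genes differed between libraries. Within a library, Cnn1 had 14.7% and 12.9% of the FPKM of Acta2 in the knockout libraries and 14.3% in Hez, against 19.7% in wild type. Actg2 behaved alike, with 16.5% and 16.1% in the knockout libraries and 16.5% in Hez, against 22.4% in wild type. Myh11 kept closer to Acta2, at 22.2% and 21.1% in the knockout libraries, 24.8% in Hez and 23.0% in wild type. Smtn and Hhip, whose CPM varied least, formed a larger share of Acta2 outside wild type: Smtn had 6.32% and 5.76% in the knockout libraries and 8.02% in Hez, against 5.28% in wild type, and Hhip 3.17% and 4.17% in the knockout libraries and 4.76% in Hez, against 2.58% in wild type. These ratios are described without a test.

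The mean profile of the 10 genes was also compared with every other gene at a mean of 10 CPM or more, 10602 in all. The measure was the distance between log2 CPM values centred on each gene's mean over the 4 libraries. The 5 nearest genes were Ttc39a, a tetratricopeptide repeat gene, at a distance of 0.0185, Rsph4a, a radial spoke head protein of motile cilia, at 0.0353, Togaram2 at 0.0459, Cfap61, a protein of the ciliary axoneme, at 0.0557 and Lrrc6, a dynein arm assembly factor, at 0.0585. Rsph4a had 33.6 and 33.9 CPM in the knockout libraries, 29.7 in Hez and 48.1 in wild type. The mean weighs the 10 genes alike, with Hhip and with Tagln, itself below 10 CPM. Lmod1 lay at 0.0502 from it, and every other contractile gene lay farther from it than the 5 named genes. Myh11 came next at 0.134, and the farthest were Hhip at 0.682 and Tagln at 1.03. With 4 libraries such a distance is a description of these samples.

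Most of the other contractile machinery lay nearer to wild type. Of 26 other actomyosin, thin filament and anchoring genes, 0 passed the threshold in either direction against wild type, and their log2 folds had a median of -0.09. At an unadjusted p below 0.05, 5 of the 26 were lower and 0 higher, beside 3.37% and 1.81% of all genes. Tpm2, a tropomyosin of the thin filament, had 94.3 and 81.8 CPM in the knockout libraries, 68.0 in Hez and 134 in wild type (log2 fold against wild type -0.60, edgeR adjusted p = 0.323). Myl9, the regulatory light chain of smooth muscle myosin, had 153 and 168 CPM in the knockout libraries, 155 in Hez and 232 in wild type (-0.53, edgeR adjusted p = 0.325). Both thus repeat the high wild-type value.

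Genes that set myosin light chain phosphorylation, such as the phosphatase subunits and the cyclic GMP kinase, had a median of 0.01 over 19 tested genes, with 0 past the threshold. Irag1, a target of the cyclic GMP kinase, stood at -0.67 (edgeR adjusted p = 0.754), the phosphatase subunit gene Ppp1r12b at -0.17 and the kinase gene Prkg1 at 0.16 (adjusted p = 0.996 for both). The 15 channel and calcium genes had a median of -0.02 and 0 passed. Kcnmb1, the beta subunit of the calcium-activated potassium channel of smooth muscle, stood at -0.45 (edgeR adjusted p = 0.952), the chloride channel gene Ano1 at 0.23 (adjusted p = 0.963) and the calcium sensor gene Stim1 at -0.21 (adjusted p = 0.996).

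Among 17 receptors that contract or relax muscle, 0 passed and the median was 0.04. Chrm2, a muscarinic acetylcholine receptor that atrial muscle also makes, had 24.8 and 30.9 CPM in the knockout libraries, 35.3 in Hez and 46.1 in wild type (-0.73, edgeR adjusted p = 0.402). The prostaglandin receptor gene Ptger2 stood at 0.65 (edgeR adjusted p = 0.928) and the adenosine receptor gene Adora2b at 0.65 (adjusted p = 0.996).

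Of 18 tested genes for serum response factor, its cofactors and other regulators of smooth muscle fate, 0 passed, with a median of 0.02. Myocd, the cofactor myocardin, had 4.80 and 5.35 CPM in the knockout libraries, 5.26 in Hez and 9.32 in wild type (log2 fold -0.88, SE 0.284, edgeR adjusted p = 0.733). It was thus highest in wild type, like the contractile genes, while Mef2c stood at 0.28 (edgeR adjusted p = 0.896) and Fhl2 at -0.48 (adjusted p = 0.996). Of the hedgehog pathway, whose ligands Hhip binds, 16 of 17 genes were tested, 0 passed and the median was -0.02. The transcription factor gene Gli2 stood at 0.83 (edgeR adjusted p = 0.947), the co-receptor gene Cdon at -0.24 and the ligand transporter gene Disp1 at 0.26 (adjusted p = 0.996 for both).

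Of the neighbouring mural and stromal cells, pericyte markers lay close to wild type and fibroblast markers were mixed. The 13 pericyte markers had a median of -0.05 against wild type and summed to 1576 and 1688 CPM in the knockout libraries, 1675 in Hez and 1679 in wild type. Of them 0 passed, with Lamc3 at -0.35, Higd1b at -0.41 and Cspg4 at -0.20 (edgeR adjusted p = 0.996 for each). The 14 fibroblast markers had a median of -0.09 in knockout and -0.27 in Hez against wild type. Of them 11 were below wild type in knockout and 0 passed, with Dcn, the matrix proteoglycan decorin, at -0.41 (edgeR adjusted p = 0.402), Lum at -0.70 (adjusted p = 0.473) and Wnt2 at 0.65 (adjusted p = 0.599). In Hez against wild type Dcn stood at -0.51 and Lum at -0.74.

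Markers of airway epithelium had a high wild-type library as well. The 11 multiciliated cell markers were all lower in knockout than in wild type, with a median of -0.55, and -0.60 in Hez, and summed to 2061 and 2085 CPM in the knockout libraries, 2083 in Hez and 2454 in wild type. At an unadjusted p below 0.05, 9 of them were lower. The 3 with the smallest p, Cdhr3 (-0.60, edgeR adjusted p = 0.248), Foxj1 (-0.55, adjusted p = 0.273) and Ccdc153 (-0.53, adjusted p = 0.323), did not pass. The 10 club cell markers had a median of -0.46, and -0.26 in Hez, and 8 were lower at an unadjusted p below 0.05. Past the threshold 3 fell, Scgb3a1 (-1.06, edgeR adjusted p = 0.00864), Bpifa1 (-1.33, adjusted p = 0.021) and Scgb3a2 (-0.88, adjusted p = 0.0365). In Hez against wild type these 3 stood at -1.47, -1.23 and -1.03, and in knockout against Hez at 0.40, -0.09 and 0.15. All 10 club cell markers together summed to 20216 and 17408 CPM in the knockout libraries, 19276 in Hez and 24162 in wild type. The part of airway content in the levels of the contractile genes was not tested.

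Cardiac muscle genes had another pattern than the contractile genes. The 16 cardiac markers, which mouse lung expresses in pulmonary vein walls, had a median of -0.55 in knockout against wild type but -0.04 in Hez against wild type. They summed to 916 and 1057 CPM in the knockout libraries, 1366 in Hez and 1438 in wild type, so Hez was near wild type, whereas for the contractile genes it was lowest. All 16 were lower in knockout than in wild type, 14 of them at an unadjusted p below 0.05, and 0 passed, with Myl4, an atrial light chain, at -0.79 (edgeR adjusted p = 0.0634), Hspb7 at -1.03 (adjusted p = 0.122) and Tnnt2 at -0.70 (adjusted p = 0.148). The skeletal muscle markers summed to 26.1 and 29.4 CPM in the knockout libraries, 29.6 in Hez and 40.5 in wild type, so the sum was highest in wild type here too. Tnnt3 alone had 4.86 and 5.41 CPM in the knockout libraries, 4.96 in Hez and 14.6 in wild type. Ckm was higher in Hez (13.3 CPM) than in wild type (12.6 CPM). The median of the skeletal list was -0.27 in knockout and -0.25 in Hez against wild type, and 0.15 in knockout against Hez, the same signs as for the contractile genes. Of 8 tested 0 passed, with Tnnt3 at -1.50 (edgeR adjusted p = 0.248), Ckm at -0.32 and Acta1 at -0.56 (adjusted p = 0.996 for both), and Tnnc2 had 0 reads in every library. Cartilage markers of the large airways summed to 17.2 and 17.4 CPM in the knockout libraries, 18.5 in Hez and 18.1 in wild type. Only 4 of 13 were tested, 0 passed, and Col11a2 stood at -0.48, Hapln1 at 0.38 and Col9a3 at 0.23 (edgeR adjusted p = 0.996 for each).

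Of the remaining lists, the mesothelial markers ran lower in knockout, and the others ran higher or varied between libraries. The 11 endothelial markers had a median of 0.11, with 4 higher and 0 lower at an unadjusted p below 0.05, beside 1.81% and 3.37% of all genes. Of the 11, 0 passed, with Gja5 at 0.59 (edgeR adjusted p = 0.323), Cldn5 at 0.27 (adjusted p = 0.812) and Plvap at 0.21 (adjusted p = 0.942). The 9 alveolar type 2 markers had a median of 0.22, with 7 higher and 0 lower at an unadjusted p below 0.05. Of the 9, 0 passed, with Cxcl15 at 0.27 (edgeR adjusted p = 0.445), Sftpc at 0.18 (adjusted p = 0.449) and Etv5 at 0.34 (adjusted p = 0.612). The 8 mesothelial markers had a median of -0.19 in knockout 1 and -0.88 in knockout 2 against wild type, and 0 passed, with Muc16 at -0.95 (edgeR adjusted p = 0.576), Krt19 at -0.27 (adjusted p = 0.896) and Rspo1 at -0.59 (adjusted p = 0.985). Of 16 immediate early genes, several of which SRF also controls, 15 were above wild type, with a median of 0.90 in the fit, but of 0.29 in knockout 1, 1.11 in knockout 2 and 0.63 in Hez. Zfp36 passed (0.91, edgeR adjusted p = 0.0365), and Junb (0.90, adjusted p = 0.208) and Nr4a1 (1.76, adjusted p = 0.402) did not. All 16 immediate early genes together summed to 1655 and 2464 CPM in the knockout libraries, 1799 in Hez and 1202 in wild type. This was the reverse of the contractile genes in that wild type was lowest.

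**Figure D4:**
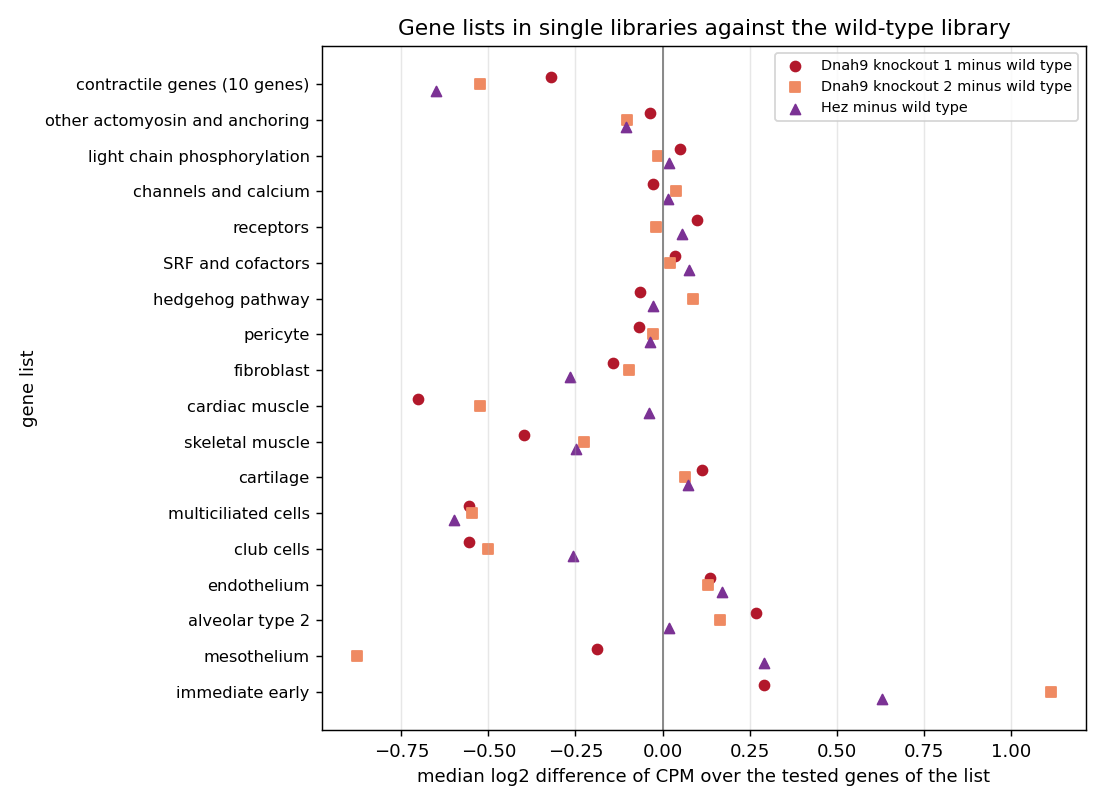
Median log2 difference of CPM against the wild-type library for the contractile genes and 17 other gene lists, with 1 point for each knockout library and 1 for Hez. The contractile genes are at -0.32, -0.52 and -0.65, the other actomyosin and anchoring genes are near 0, and the cardiac list is at -0.70 and -0.52 in the knockout libraries and -0.04 in Hez.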

How the data were processed

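Per the labels' protocols, lung RNA of 4 samples went into TruSeq libraries that were read on an Illumina HiSeq. The authors deposited 1 table with raw read counts and FPKM values per gene, per the file headers. The submitters' processing notes name the build GRCm39. No aligner, counter or strand setting is given in the sources used here. Overlapping or near-identical genes may therefore share reads. The deposited FPKM values use the table's gene length and each library's total count.

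Groups followed the genotype labels. Of 21931 genes 15055 passed filterByExpr (minimum count 10). They were TMM-scaled and tested two-sided with the edgeR 4.0.16 quasi-likelihood test (R 4.3.3), fitted to 3 groups with 1 residual and 7.02 prior degrees of freedom, which draws the spread largely from other genes and assumes that single libraries vary like the knockout pair. P-values were adjusted by Benjamini-Hochberg over all genes. Single-library differences are log2 CPM with a prior count of 2. Standard errors are the log2 fold over the root of F. DESeq2 1.42.0 and limma 3.58.1 were alternatives, with other scalings, filters, groups and libraries left out. The 3 genes of smallest p were named per list, except 1 that is not reported here, and the 5 nearest genes by profile. The genes and lists were chosen with earlier results of these data known. Promoter windows came from RefSeq on GRCm38.p6.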

Additional observations from a re-analysis of the deposited data

How the results depend on the processing

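No paired analysis was possible because the labels give the libraries no shared replicate numbers. Against wild type, the number of contractile genes called was 0 under every alternative with a test except DESeq2, which called 1 (Cnn1). The number of all genes called, 8, became 14 under DESeq2, 4 without the filter on counts and also with the stricter one, 1 with limma on FPKM at each pseudocount, 0 without a filter on FPKM and 2 with wild type and Hez as one group. The median of the contractile genes against wild type was -0.43 and stayed between -0.42 and -0.44 under other scalings, filters and tests, but was -0.19 with wild type and Hez as one group. With a knockout library left out it ranged from -0.52 to -0.32. Scaling moved the median of all genes by at most -0.0122.

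Against Hez, all genes called went to 7 with DESeq2, 0 with limma on FPKM at the smaller pseudocounts and without a filter, and 2 with wild type and Hez as one group. That grouping turned the median of the contractile genes to -0.19, with Acta2 at -0.0043, Myh11 at -0.13, Tagln at -0.77, Cnn1 at -0.36, Des at -0.17, Actg2 at -0.31, Lmod1 at -0.20 and Smtn at -0.061, since it adds the high wild-type library to the reference. Leaving out a knockout library turned Smtn (-0.12 to 0.14), Tagln (-0.15 to 0.78), Synpo2 (-0.075 to 0.062) and Hhip (-0.10 to 0.17). With a knockout library out no residual degrees of freedom remain, so these are values without a test. At its 6 to 26 reads, Tagln has wide counting intervals.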
